A study of Mus musculus with 7 samples.

Results

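The 8 genes described here encode tissue repair factors: the growth factors amphiregulin (Areg), heparin-binding EGF-like growth factor (Hbegf), vascular endothelial growth factor A (Vegfa), insulin-like growth factor 1 (Igf1) and platelet-derived growth factor subunit B (Pdgfb), the opioid peptide precursor proenkephalin (Penk), the matrix protease Mmp9 and the proprotein convertase Furin. They were chosen by symbol, and all 8 were found among 55335 gene identifiers and among the 17015 genes that passed the filter on low counts. The RNA came from ILC2s (group 2 innate lymphoid cells, which lack antigen receptors and carry ST2, the receptor of interleukin 33), sorted from mouse hearts as CD45+, lineage-negative, ST2+ cells. The 3 naive libraries came from hearts that had not been transplanted, and their strain was not given in the sources used here. The 4 allograft libraries came from Balb/C hearts transplanted into C57BL/6 mice and harvested on day 7, in a model that develops acute rejection. Cells of 4 to 7 hearts were pooled for every library, so libraries and not animals were the replicates. The labels gave no genotype, age, sex or sequencing batch, and they did not say whether cells from a graft were of donor or recipient origin.

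ILC2s act in tissue largely through what they secrete. Amphiregulin and HB-EGF are made as membrane-bound precursors, are released by metalloproteinases and bind the EGF receptor on epithelial and stromal cells, and amphiregulin is the repair factor for which ILC2s are best known. Proenkephalin is cut into enkephalin peptides, Vegfa and Pdgfb act on endothelial and mural cells, Igf1 acts on muscle and stroma, Mmp9 degrades matrix, and Furin cuts growth factor precursors and other proproteins in the secretory pathway.

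A pair of sequences shows what the leading members are. The first is the window around the start site of Areg, the most abundant member (RefSeq, GRCm38.p6, plus strand, chr5:91139349-91139648, running from upstream of the start site to just past it). Capitals mark matches, on both strands, of the cyclic AMP response element TGACGTCA (1 match, a motif held by 1.79% of 32851 such windows), of its shorter form TGACG (3 matches, of which 2 lie within the full element; held by 20.8%) and of the TATA box TATAAA (1 match; held by 13.6%). The AP-1 motif TGANTCA had 0 matches there and was held by 7.81% of windows. Windows of Furin, Igf1 and Vegfa were also matched, and TGACGTCA occurred in none of those. No window of Hbegf, Penk, Pdgfb or Mmp9 was searched.
Areg: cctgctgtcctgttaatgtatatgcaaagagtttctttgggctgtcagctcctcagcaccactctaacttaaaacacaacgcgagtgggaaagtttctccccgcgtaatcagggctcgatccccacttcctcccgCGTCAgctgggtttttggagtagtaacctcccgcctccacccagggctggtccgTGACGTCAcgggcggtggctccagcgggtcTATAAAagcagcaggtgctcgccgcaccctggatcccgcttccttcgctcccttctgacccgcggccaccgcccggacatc
The second is a stretch of the Penk coding sequence (GENCODE M21, bases 274 to 573 of 804, sense strand of the gene), in which capitals mark codons that spell an enkephalin peptide.
Penk: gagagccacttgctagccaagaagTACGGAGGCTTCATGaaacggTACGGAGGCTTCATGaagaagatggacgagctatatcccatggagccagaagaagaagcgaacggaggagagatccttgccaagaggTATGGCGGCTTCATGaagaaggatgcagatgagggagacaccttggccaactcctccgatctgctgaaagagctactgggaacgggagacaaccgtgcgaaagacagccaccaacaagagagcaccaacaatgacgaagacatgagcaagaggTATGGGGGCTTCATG
The stretch holds 4 of the 7 in-frame copies in Penk, and the whole coding sequence has 6 copies that end in ATG (Met-enkephalin) and 1 that ends in CTG (Leu-enkephalin). Searched on the sense strand in any frame, a run of TA, GG, GG and TT, each followed by any base, which covers the first 4 codons of the peptide, occurred in transcripts of 2.41% of 21877 protein-coding genes, and 4 or more times in those of Penk and Krtap19-2.

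The library labelled naive replicate 2 went against its label, so fitted changes are given with and without it. The 12 ILC2 markers, among them Gata3, Il1rl1 and Rora, summed to 182 CPM (counts scaled to the library's total) in that library, with Il13 at 0 counts. The same sum was 5378 CPM in naive replicate 1, 7780 CPM in naive replicate 3 and 5912 to 6737 CPM in the allografts. The 12 kidney tubule markers summed to 10960 CPM in naive replicate 2, with all 12 detected, against 86.4 and 318 CPM in the other naive libraries and 79.5 to 125 CPM in the allografts. Mitochondrial genes held 26.5% of its counts and between 2.04% and 3.11% of those of the other 6 libraries. The remaining naive libraries also differed from each other, as the lung epithelium list summed to 0.716 CPM in naive replicate 1 and 668 CPM in naive replicate 3 (allografts 243 to 657 CPM). Library totals ran from 29107326 to 53044907 counts, and a count of 0 allowed up to 3 counts, or 0.0566 to 0.103 CPM, a limit that covers counting error only. Naive replicates 1 and 3 had 15820 and 13864 genes above 0, against 20254 in naive replicate 2 and 19235 to 21354 in the allografts. Whether low transcripts were lost from naive replicates 1 and 3 was not tested, so lower bounds on folds allow for counting error only.

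**Figure D1:**
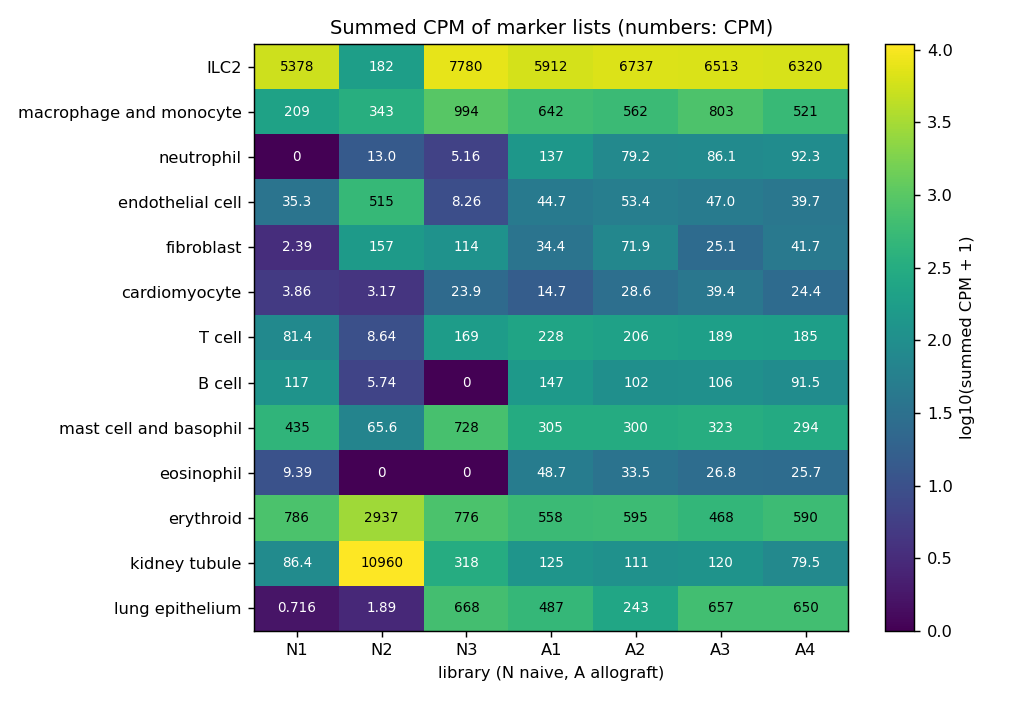
Summed CPM of 13 marker lists (rows) in the 7 libraries (columns, N naive, A allograft), with colour on the scale log10(CPM + 1) and the CPM written in each cell. N2 holds 182 CPM of ILC2 markers and 10960 CPM of kidney tubule markers.

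The order of the members by mean level per gene length was the same for the 3 most abundant ones in allografts and in naive replicates 1 and 3. In allografts Areg led with 836 ± 75.6 FPKM (fragments scaled to gene length and library depth; SD, n = 4), and its mean ranked 68 among 25643 genes with a value above 0. Furin followed with 46.3 ± 8.93 FPKM and Penk with 11.7 ± 3.75 FPKM, and the ranges of these 3 did not overlap. Hbegf (2.52 ± 1.04 FPKM), Vegfa (1.13 ± 0.400), Pdgfb (0.855 ± 0.209), Mmp9 (0.437 ± 0.438) and Igf1 (0.106 ± 0.0912) came next, and each of these overlapped its neighbour in the order. In naive replicates 1 and 3 the mean levels were 629 FPKM for Areg, 30.9 FPKM for Furin and 6.12 FPKM for Penk, but Penk was present in only 1 of those libraries. In naive replicate 3 it was at 0, below Vegfa (6.32 FPKM), Hbegf (4.89 FPKM) and Igf1 (2.69 FPKM).

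With edgeR's quasi-likelihood test over all 7 libraries, 0 of the 8 members differed between allograft and naive hearts at an adjusted p under 0.05, where 0.0353% of all genes tested did (6 of 17015; 0.0294% as higher and 0.00588% as lower). At an unadjusted p under 0.05 there was 1 member, Hbegf, against 10.3% of all genes. DESeq2 gave a p for 6 of the 8, not for Hbegf and Pdgfb, and called 0 of the 6, where it called 5.18% of all genes it tested. Limma on FPKM tested 5, without Igf1, Pdgfb and Mmp9, and called 0 of the 5, where it called 1.20%. The median log2 fold change of the members was -0.67, with 3 higher and 5 lower on average, beside -0.01 for all genes. Without naive replicate 2 the median was 0.03 beside 0.23 for all genes, and 1 member of 8 passed, as higher, where 3.10% of genes did (3.00% higher, 0.0998% lower, and 20.2% at an unadjusted p under 0.05). That member, Pdgfb, had 0 counts in both naive libraries left and passed the filter on low counts through the allografts alone. In bulk RNA, a change in the number of cells of a type and a change in RNA per cell cannot be told apart. No label says whether the replicates were independent experiments, so the p-values measure the spread between these libraries only.

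Areg (ENSMUSG00000029378, chr5:91139599-91148432, GRCm38, plus strand) was high in every library except naive replicate 2, where ILC2 markers were low. It stood at 1037, 19.7 and 698 CPM in naive replicates 1 to 3, and at 1232, 1055, 1110 and 1289 CPM in allograft replicates 1 to 4. Every allograft library lay above every naive library, but the lowest allograft exceeded naive replicate 1 only 1.02 times, and that ratio was 0.983 with DESeq2 size factors in place of total counts. It was the only member whose groups did not overlap, where 12.5% of all genes tested had every allograft library above every naive one and 2.15% had every one below. Without naive replicate 2 the members without overlap were Areg and Pdgfb, both above, where 21% of genes lay above and 7.15% below. The log2 fold change was 0.98 (SE 0.93, edgeR adjusted p = 0.820), or 0.39 (SE 0.22, adjusted p = 0.350) without naive replicate 2. The exact two-sided permutation p of the mean log2 CPM was 0.0286, the smallest that 3 against 4 libraries can give. It includes naive replicate 2 and rests on the same separation of the groups, so it is no further support. By the same permutation test p was 0.0571 for Furin, 0.0857 for Penk and at least 0.257 for the remaining members. Among allografts Areg varied least of the 8, with a coefficient of variation of 9.20%, against 19.1% for Furin and 99.2% for Mmp9.

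**Figure D2:**
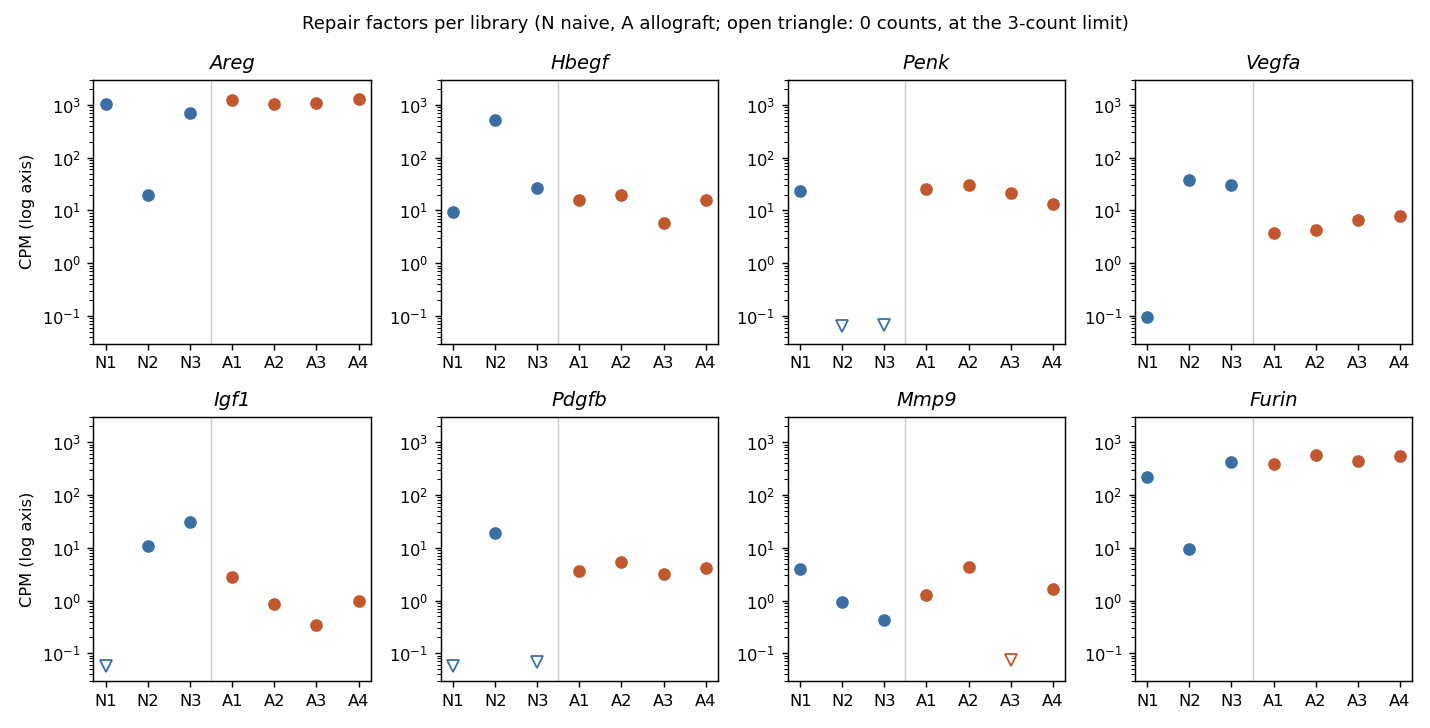
CPM of each repair factor on a log axis in naive (N1 to N3, blue) and allograft (A1 to A4, red-brown) libraries, 1 point per library, with open triangles for 0 counts placed at the limit of 3 counts. Areg and Furin are low in N2, where Hbegf reaches 526 CPM, and Pdgfb is at 0 in N1 and N3.

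Hbegf (ENSMUSG00000024486, chr18:36504927-36515805, minus strand) had the opposite profile across the naive libraries. It stood at 9.22, 526 and 26.8 CPM in naive replicates 1 to 3, and at 15.6, 19.2, 5.78 and 16 CPM in allografts 1 to 4. Naive replicate 2 stood alone, and the other 6 libraries lay within 5.78 to 26.8 CPM with the groups overlapping. Its log2 fold change of -4.28 (SE 1.40, adjusted p = 0.341) was -0.41 (SE 0.68, adjusted p = 0.805) without that library. The kidney tubule list moved with Hbegf in naive replicate 2, as did the endothelial list (515 CPM there with 9 of 9 genes detected, 8.26 to 53.4 CPM elsewhere); their part in the Hbegf value was not tested.

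Among the 11 ligands of the EGF receptor family, Areg held nearly all transcripts outside naive replicate 2. Its share of their summed FPKM was 99.67% and 98.50% in naive replicates 1 and 3 and 99.58%, 99.46%, 99.51% and 99.54% in allografts 1 to 4. Hbegf held 0.129% to 0.946% in those 6 libraries. In naive replicate 2 the shares were 7.322% for Areg, 49.0% for Hbegf and 42.7% for Egf, the founding ligand of the family, which had 87.0 FPKM there and 0.207 to 2.88 FPKM elsewhere. Ereg and Nrg3, an epiregulin and a neuregulin gene, had 0 counts in all 7 libraries.

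**Figure D3:**
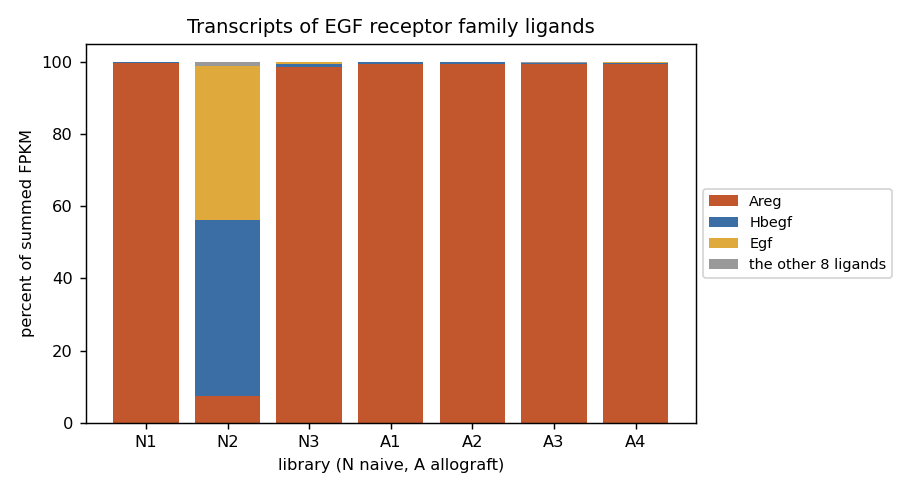
Share of the summed FPKM of 11 EGF receptor family ligands held by Areg, Hbegf, Egf and the other 8, as stacked bars for each library (N naive, A allograft). Areg holds at least 98.50% in every library except N2, where Hbegf holds 49.0% and Egf 42.7%.

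Penk (ENSMUSG00000045573, chr4:4133531-4138819, minus strand) was found in all allografts and in 1 naive library. It had 22.9 CPM in naive replicate 1 and 0 counts in naive replicates 2 and 3, and 25, 29.8, 21.2 and 13.0 CPM in allografts 1 to 4. Naive replicate 1 lay within the allograft range, and naive replicate 3, which carried ILC2 markers at 7780 CPM, lacked the transcript. The log2 fold change was 1.56 (SE 2.15, adjusted p = 0.894), or 0.94 (SE 1.84, adjusted p = 0.842) without naive replicate 2. Without naive replicate 1, both remaining naive libraries were at 0 and the allografts were at least 330-fold higher (limit of 3 counts per library). Penk then passed with an adjusted p of 0.0345, where 0.568% of genes passed (0.510% as higher and 0.0584% as lower). That fit kept naive replicate 2, which went against its label, and left out naive replicate 1, where Penk stood at 22.9 CPM. In it Penk passed the filter on low counts through the allografts alone. In those 6 libraries 26.4% of genes had all allografts above the naive libraries and 6.38% had all below. An uncharacterised transcript on the opposite strand, A830012C17Rik, shares 233 of the 1634 exon bases of Penk and had 0 CPM in naive and 1.36 to 1.93 CPM in allograft libraries (adjusted p = 0.144, or 0.0450 without naive replicate 2). Since use of strand in the counting was not given in the sources used here, reads of the shared stretch cannot be assigned to either gene.

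Furin (ENSMUSG00000030530, chr7:80388585-80405436, minus strand) was the second most abundant member. It stood at 224, 9.41 and 421 CPM in naive replicates 1 to 3, and at 381, 581, 446 and 555 CPM in allografts 1 to 4. Naive replicate 3 lay above allograft replicate 1, so the groups overlapped. The log2 fold change was 1.12 (SE 0.90, adjusted p = 0.774), or 0.55 (SE 0.33, adjusted p = 0.396) without naive replicate 2. The antisense gene Gm44851 (chr7:80404269-80406577, plus strand) spans the annotated start of Furin and shares 118 of its 9178 exon bases. Gm44851 stood at 96.4, 1.91 and 268 CPM in the naive libraries, and at 542, 1015, 499 and 1122 CPM in allografts 1 to 4. Its log2 fold change was 2.65 (SE 1.21, adjusted p = 0.526), or 2.06 (SE 0.59, adjusted p = 0.123) without naive replicate 2. How the counting divided reads between these genes was not tested.

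Pdgfb (ENSMUSG00000000489, chr15:79995874-80014977, minus strand) was low but steady in allografts and reversed its direction when naive replicate 2 was left out. It stood at 0, 19.4 and 0 CPM in naive replicates 1 to 3, and at 3.68, 5.49, 3.16 and 4.23 CPM in allografts 1 to 4 (123 to 178 counts). Each allograft lay below naive replicate 2 and above the other naive libraries. The log2 fold change was -1.22 (SE 2.25, adjusted p = 0.932) over all libraries. Without naive replicate 2 the allografts were at least 66.0-fold higher by the limit of 3 counts, with an adjusted p of 0.0398. Pdgfb was the member that passed in that fit, where 3.00% of genes passed as higher. With both naive libraries at 0, it passed the filter on low counts through the allografts alone. The adjusted p is therefore no support beyond the counts themselves. Fewer genes were detected in naive replicates 1 and 3 than in any allograft, and the part of this in the counts of 0 was not tested. The endothelial list, whose cells are a known source of Pdgfb, summed to 35.3 and 8.26 CPM in naive replicates 1 and 3 and to 39.7 to 53.4 CPM in allografts. Of its 9 genes, 4 and 2 were detected in naive replicates 1 and 3, against 6 to 8 in the allografts. The part of this list in the Pdgfb value was not tested.

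Vegfa (ENSMUSG00000023951, chr17:46016993-46032369, minus strand) and Igf1 (ENSMUSG00000020053, chr10:87858265-87937042, plus strand) shared a profile in which naive replicates 2 and 3 were high and naive replicate 1 was near or at 0. Vegfa stood at 0.0943, 37.3 and 30.6 CPM in naive replicates 1 to 3, and at 3.79, 4.20, 6.68 and 7.94 CPM in allografts 1 to 4. Igf1 stood at 0, 10.8 and 30.2 CPM in the naive libraries, and at 2.77, 0.864, 0.343 and 0.996 CPM in the allografts. For both genes all 4 allografts lay between naive replicate 1 and the other naive libraries. Pearson's r between the pair was 0.900 over the 7 libraries and 0.880 over the 6 without naive replicate 2, as a description of libraries that share depth and cell makeup. The log2 fold change of Vegfa was -2.37 (SE 1.38, adjusted p = 0.667), or -1.52 (SE 1.51, adjusted p = 0.645) without naive replicate 2. For Igf1 it was -3.67 (SE 1.90, adjusted p = 0.601), or -3.66 (SE 2.06, adjusted p = 0.351) without that library. The 8 fibroblast markers together gave 2.39, 157 and 114 CPM in naive replicates 1 to 3, against 25.1 to 71.9 CPM in allografts, which also lay between naive replicate 1 and the other naive libraries; naive replicate 3 held 3 of the 8, with Col3a1, Dpt, Lum, Pdpn and Postn at 0. The 12 macrophage and monocyte markers summed to 209, 343 and 994 CPM in the naive libraries and to 521 to 803 CPM in the allografts. Of the 12, 2, 10 and 6 were detected in naive replicates 1 to 3, against 9 to 11 in the allografts. Adgre1, C1qa, Cd68, Fcgr1, Itgam and Mrc1 were at 0 in both naive replicates 1 and 3. The part of either list in these values was not tested.

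Mmp9 (ENSMUSG00000017737, chr2:164940780-164955850, plus strand) was at most 4.26 CPM in any library and had 0 counts in allograft replicate 3. It stood at 4.03, 0.945 and 0.436 CPM in naive replicates 1 to 3, and at 1.29, 4.26, 0 and 1.65 CPM in allografts 1 to 4. The groups spanned the same range, and the log2 fold change was -0.13 (SE 1.70, adjusted p = 0.994), or -0.34 (SE 1.86, adjusted p = 0.952) without naive replicate 2. Its standard error leaves changes of several-fold in either direction undetectable at this replication. The 11 neutrophil markers, whose cells store this protease, summed to 0, 13.0 and 5.16 CPM in the naive libraries. In allografts they summed to 79.2 to 137 CPM. Of the 11, 0, 4 and 1 were detected in naive replicates 1 to 3, against 6 to 8 in the allografts. Csf3r, Cxcr2, Elane, Ly6g and Mpo were at 0 in allograft replicate 1. In allograft replicate 3, where Mmp9 was at 0, the list summed to 86.1 CPM. The part of this list in the Mmp9 values was not tested.

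**Figure D4:**
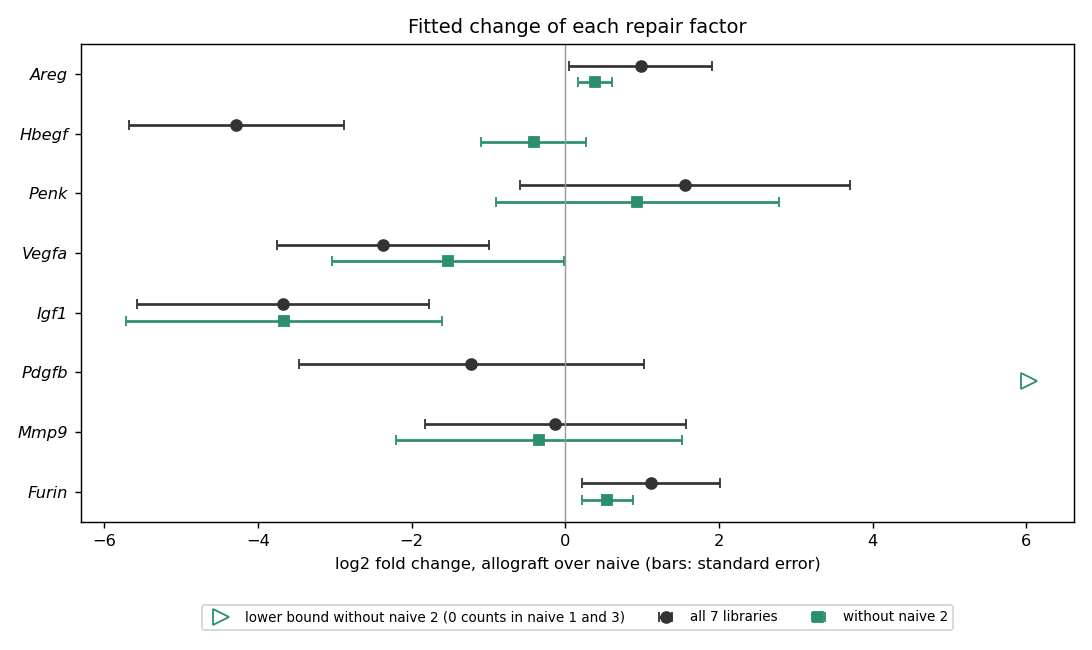
Log2 fold change of allograft over naive for each member with its standard error, over all 7 libraries (circles) and without naive replicate 2 (squares), with a triangle for the lower bound of Pdgfb. Hbegf moves from -4.28 to -0.41, and Pdgfb from -1.22 to a bound of 6.04.

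Of 101 genes in 8 lists of related pathways, 92 were detected, 70 were tested and 0 passed with edgeR over all libraries (9 at an unadjusted p under 0.05). Over all libraries 27 of the 70 were higher on average and the median log2 fold change was -0.70, beside -0.01 for all genes. Without naive replicate 2 the median had the opposite sign: 50 of 73 were higher, where 10582 of all 18037 genes were. The median was then 2.09, or 1.70 with genes at 0 in the naive libraries set to their lower bound, beside 0.23 for all genes. Genes at 0 in both naive libraries, in the lists and among all genes, entered that fit through the allografts alone. They could only come out higher. Of the 92 detected, 47 had their highest CPM in naive replicate 2, against 6578 of 28138 detected genes overall. DESeq2 called 5 of 58 (Ctgf, Hgf, Igfbp3, Igfbp5 and Mbtps1), where it called 1244 of 24028 genes, and limma on FPKM called 1 of 33 (Mmp10), where it called 144 of 11991. Without naive replicate 2, edgeR called 4 of 73, all higher in allografts, where 3.00% of genes were called higher. Those 4 were Mmp10, Mmp12, Timp3 and Vegfc, and the last 3 are named after their values were seen. The last 3 had 0 counts in naive replicates 1 and 3 and passed the filter on low counts through the allografts alone.

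Of the matrix proteases, Mmp10, Mmp12 and Mmp25 were higher in every allograft library than in every naive one, where 12.5% of all genes tested were. Mmp25, also named after its values were seen, stood at 0.220, 0 and 0 FPKM in naive replicates 1 to 3. It had 2.04, 0.866, 1.89 and 4.41 FPKM in allografts 1 to 4 (log2 fold change 4.98, SE 2.16, edgeR adjusted p = 0.492, or 4.37, SE 1.94 and 0.264 without naive replicate 2). Mmp10, the protease stromelysin 2, stood at 2.29, 0 and 3.26 FPKM in naive replicates 1 to 3, and at 39.2, 21.2, 23.3 and 19.5 FPKM in allografts 1 to 4. Every allograft lay well above every naive library, and its log2 fold change was 3.79 (SE 1.49, adjusted p = 0.424), or 3.19 (SE 0.50, adjusted p = 0.0429) without naive replicate 2. Mmp12, the macrophage elastase, was at 0 counts in naive replicates 1 and 3, and without naive replicate 2 was at least 125-fold higher in allografts (adjusted p = 0.0344; over all libraries the log2 fold change was 3.03 and the adjusted p 0.744). The inhibitor Timp3 was at least 126-fold higher on the same terms (adjusted p = 0.0344), but reached 62.5 FPKM in naive replicate 2 against 0.612 to 1.06 FPKM in allografts, and its log2 fold change over all libraries was -5.14 (adjusted p = 0.623). Of the 14 tested genes of this list, 7 were higher and 7 lower on average over all libraries, with a median of -0.05. In the fit without naive replicate 2, 13 of 15 were higher, with a median of 7.63, or 3.39 with genes at 0 in the naive libraries set to their lower bound. Of all genes in that fit, 10582 of 18037 were higher, with a median of 0.23. Some of the 15 were near the limit of detection. Mmp11, Mmp16 and Mmp17 had at most 58 counts in any allograft and 0 in naive replicates 1 and 3. Mmp3, Mmp12, Mmp19, Mmp23, Timp1 and Timp3 also had 0 counts in naive replicates 1 and 3. All of these entered that fit through the allografts alone and could only come out higher, so their direction is no result.

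Genes that handle EGF receptor ligands were present unevenly. Adam8, a membrane protease, stood at 15, 0 and 1.13 FPKM in the naive libraries, and at 19.8 to 22.4 FPKM in allografts (log2 fold change 1.98, SE 1.67, adjusted p = 0.788, or 1.36, SE 0.88 and 0.427 without naive replicate 2). The other Adam genes of the list, named after their values were seen, overlapped between the groups. Their log2 fold changes were 0.38 for Adam9, 0.36 for Adam12, -0.40 for Adam10 and -0.74 for Adam17 (edgeR adjusted p at least 0.845). Without naive replicate 2 they were 0.26, -0.23, -0.98 and -0.82 (adjusted p at least 0.588). Cd9, a tetraspanin that associates with the HB-EGF precursor, stood at 0, 135 and 1.63 FPKM in naive replicates 1 to 3, and at 9.68 to 21.3 FPKM in allografts. Its direction turned with naive replicate 2: the log2 fold change was -2.06 (SE 1.99, adjusted p = 0.823) over all libraries and 4.19 (SE 1.88, adjusted p = 0.270) without that library, where every allograft lay above both naive libraries. The receptor genes Erbb2 and Erbb3 stayed at or below 0.515 FPKM outside naive replicate 2.

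Within the VEGF and PDGF system, Vegfc, a growth factor for lymphatic vessels, was at 0 counts in naive replicates 1 and 3. It had 2.97, 1.58, 2.13 and 0.765 FPKM in allografts 1 to 4 and 2.54 FPKM in naive replicate 2. Without that library it was at least 84.3-fold higher (adjusted p = 0.0433), and over all libraries the log2 fold change was 0.65 (SE 2.22, adjusted p = 0.969). Nrp1, a co-receptor of VEGF, stood at 1.06, 8.67 and 1.68 FPKM in the naive libraries, and at 4.30 to 5.06 FPKM in allografts (log2 fold change -0.13, adjusted p = 0.986, or 1.70 and 0.0546 without naive replicate 2). The VEGF receptors Flt1 and Kdr reached 3.84 and 7.99 FPKM in naive replicate 2 and at most 0.333 FPKM in other libraries. In the IGF list, 9 of 9 tested genes were lower in allografts on average, with a median of -1.90, where 8607 of all 17015 genes were lower, and 0 passed. Of the 9, 3 were higher without naive replicate 2, where 10582 of all 18037 genes were, and the median was then -0.78. The binding protein gene Igfbp7 had 721 FPKM in naive replicate 2 and at most 10.8 FPKM elsewhere, and its log2 fold change turned from -5.14 (adjusted p = 0.489) to 2.09 (adjusted p = 0.461) without that library.

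Among the genes of prohormone cleavage, Pcsk1 had counts in all 7 libraries, also in naive replicates 2 and 3, where Penk was at 0. Pcsk1, prohormone convertase 1, stood at 42.2, 0.552 and 11.9 FPKM in naive replicates 1 to 3, and at 34.3, 31.4, 34.1 and 27.2 FPKM in allografts (log2 fold change 0.81, SE 0.99, adjusted p = 0.871, or 0.22, SE 0.47 and 0.855 without naive replicate 2). Pomc, the precursor of beta-endorphin, stood at 11, 2.49 and 35.4 FPKM in the naive libraries, and at 18.3 to 26.1 FPKM in allografts (log2 fold change 0.42, adjusted p = 0.927, or -0.08 and 0.959 without naive replicate 2). The groups overlapped for both. The second convertase gene Pcsk2 and the opioid receptor genes Oprm1 and Oprd1 were at 0 counts in all 7 libraries, and the receptor gene Oprk1 had 2 counts in naive replicate 2 alone. Cpe, carboxypeptidase E, reached 37.1 FPKM in naive replicate 2 and at most 0.941 FPKM elsewhere.

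Of the convertases related to Furin, Mbtps1, the site-1 protease, had the smallest p of the 70 tested pathway genes. It stood at 2.00, 1.49 and 1.53 FPKM in naive replicates 1 to 3, and at 3.96, 4.98, 4.38 and 4.76 FPKM in allografts, without overlap. The log2 fold change was 1.27 (SE 0.31, adjusted p = 0.175), and 1.34 (adjusted p = 0.0636) without naive replicate 2. Pcsk7 overlapped between the groups, with 2.09, 1.42 and 9.84 FPKM in the naive libraries and 3.93 to 7.60 FPKM in allografts (log2 fold change 0.19, adjusted p = 0.970, or -0.19 and 0.915 without naive replicate 2).

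Among other secreted factors, Metrnl, which encodes a meteorin-like cytokine, and Anxa1, which encodes the anti-inflammatory protein annexin A1, were at levels near that of Furin. Metrnl stood at 97.4, 15.6 and 23.0 FPKM in naive replicates 1 to 3, and at 39.2 to 66.6 FPKM in allografts (log2 fold change 0.19, adjusted p = 0.965, or -0.17 and 0.910 without naive replicate 2). Anxa1 had 28.6, 19.1 and 30.2 FPKM and, in allografts, 29.6 to 48.9 FPKM (log2 fold change 0.44, adjusted p = 0.735, or 0.38 and 0.538 without naive replicate 2). Spp1, osteopontin, stood at 16.3, 3259 and 97.6 FPKM in the naive libraries, and at 21.9 to 37.6 FPKM in allografts (log2 fold change -5.67, adjusted p = 0.294, or -0.92 and 0.470 without naive replicate 2). Hgf, hepatocyte growth factor, had 0 counts in the naive libraries and 81, 68, 1 and 15 counts in allografts 1 to 4, at least 17.6-fold higher on average (adjusted p = 0.287), or at least 17.9-fold without naive replicate 2 (adjusted p = 0.174).

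**Figure D5:**
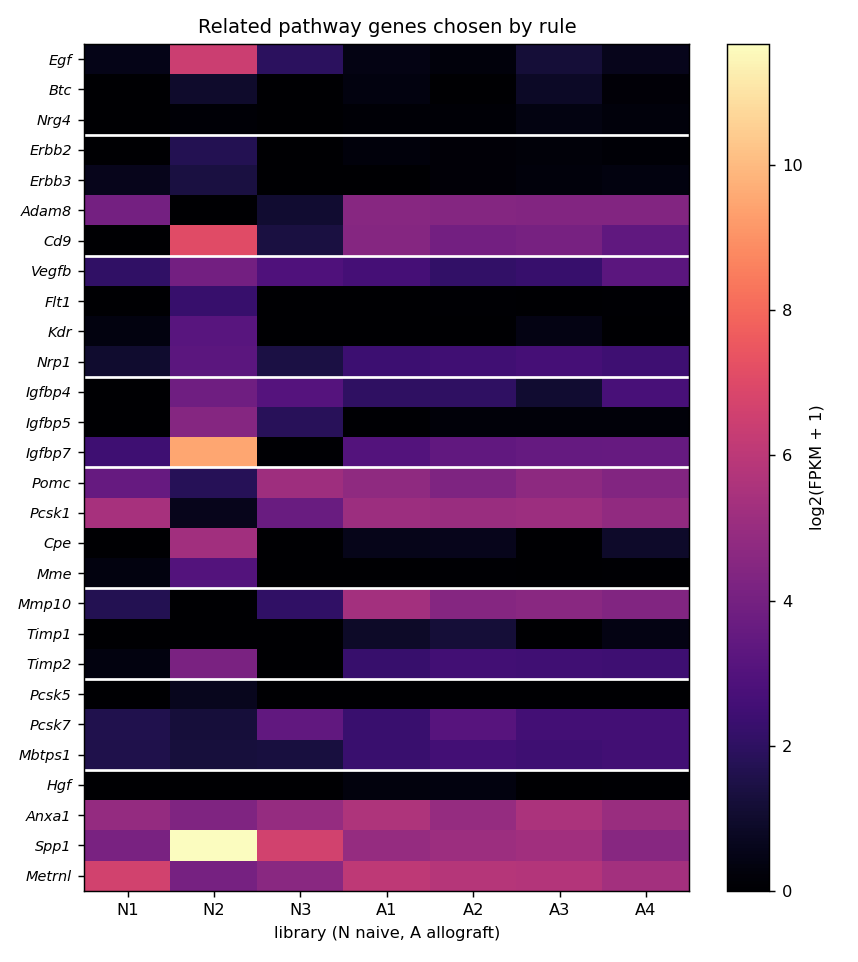
Levels, as log2(FPKM + 1), of the 28 related genes chosen by rule (rows, white lines part the 8 lists) in naive (N) and allograft (A) libraries. Egf, Igfbp7 and Spp1 stand out in N2, and Mmp10 lies between 19.5 and 39.2 FPKM in the allografts against at most 3.26 FPKM in the naive libraries.

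The genes whose log2 CPM followed each member most closely over the 7 libraries were listed among 4939 genes of at least moderate level, as a description. For Areg they were Laptm5 (Pearson's r 0.9991), Tnfrsf1b (0.9989) and Stk17b (0.9988), and over the 6 libraries without naive replicate 2 the values were 0.951, 0.962 and 0.963. For Penk they were Golm1 (0.9968), Ctla4 (0.9964) and Cenpf (0.9961), with at least 0.993 without naive replicate 2. For Furin they were Sytl3 (0.9989), Ascc3 (0.9979) and Il18rap (0.9972), and for Hbegf they were Suclg2 (0.9857), Atp6v1a (0.9819) and Tmem213 (0.9798). Over the 6 libraries the values were 0.976, 0.999 and 0.976 for Furin and 0.908, 0.953 and 0.858 for Hbegf. Between Areg and Hbegf themselves r was -0.951 over all libraries and -0.438 without it. The libraries share depth and cell makeup.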

How the data were processed

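RNA of sorted ILC2s was measured in 7 libraries, 3 naive and 4 allograft, grouped by sample title. The authors deposited counts per gene (whole numbers, not normalized) and FPKM values for the same identifiers. The submitters' processing notes name FastQC 0.11.5, STAR 2.5.3a, StringTie 1.3.1c, DESeq2 1.16.1 and the build mm10, with no roles; per the labels' protocols, full-length cDNA was amplified from little RNA. The counting tool, annotation and use of strand are not given in the sources used here. Coordinates are those of GENCODE M21 (GRCm38).

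CPM was computed from the deposited totals. The main test was edgeR 4.0.16 in R 4.3.3 (quasi-likelihood, TMM, filterByExpr, Benjamini-Hochberg over all genes tested, threshold 0.05) over 7 libraries without a covariate; it was tested on simulated data. The standard error follows from the F value. Folds against libraries that all held at most 3 counts are lower bounds, set against 3 counts per library, and allow for counting error only. Alternatives were DESeq2 size factors, DESeq2 1.42.0, no filter, a mean of at least 50 counts, limma 3.58.1 on log2(FPKM + 1) for genes with FPKM of at least 1 in 3 libraries, a replicate block and leaving out each library. Of each pathway list, the genes named were those past the threshold or else the 2 with the smallest p, and the 2 with the highest allograft FPKM; likeness was ranked among genes with an average log2 CPM of at least 5. The members, lists and tests were chosen with earlier results of these data known.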

Additional observations from a re-analysis of the deposited data

Results flagged for a closer look

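Each of 50 values was checked, within the allografts, for 1 library at a distance from its group. The check picked out 1, and about 2.5 are due to chance at the level used. That value was the CPM of Kdr, a VEGF receptor gene of endothelial cells, at 3.475 in allograft replicate 3, whereas the remaining allografts ranged from 0 to 0.2748.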

How the results depend on the processing

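The count of members past the threshold was 0 to 1 over the 7 fits that each left out 1 library (Penk without naive replicate 1, Pdgfb without naive replicate 2) and 0 under the other alternatives. The count over all genes was 6, against 1244 with DESeq2, 144 with limma on FPKM, 0 with the replicate block (478 at an unadjusted p under 0.05), a fit that also drops allograft replicate 4, and 0 to 560 when 1 library was left out. Leaving out naive replicate 2 gave the 560, naive replicate 1 gave 107, naive replicate 3 gave 7, and each allograft gave 0 (848 to 1074 unadjusted). The count of pathway genes was 0, against 5 with DESeq2, 1 with limma on FPKM and 0 to 4 when 1 library was left out. The fitted log2 fold change of Pdgfb (-1.22) was 7.16 with the replicate block and ran from -1.78 to 10.37 when 1 library was left out, and the 10.37, without naive replicate 2, depends on the prior count because both remaining naive libraries were at 0. That of Mmp9 (-0.13) ran from -0.98 to 0.96 when 1 library was left out, was -1.72 with the replicate block, and was positive without naive replicate 1 (0.96) and without allograft replicate 3 (0.29). The other 6 members kept their direction under every alternative that gave them a value. The adjusted p of Hbegf ran from 0.11 to 1.00, and that of Areg from 0.350 to 1.00. The separation of the groups in Areg was lost with DESeq2 size factors (ratio 0.983, chosen after seeing the data). DESeq2 size factors moved the median of all genes from -0.01 to -0.20. The mean share of Areg among EGF receptor ligands in naive libraries (68.5%) was 52.9% to 99.1% when 1 library was left out. The labels do not say whether replicate numbers pair the libraries. The deviations of same-numbered libraries from their group means correlated at 0.0167, -0.0181 and 0.0368, and those of differently numbered ones at -0.0912 to 0.0802. The naive mean includes naive replicate 2, so these values cannot decide whether libraries were paired. Penk, Pdgfb, Igf1 and Mmp9 each had 0 counts in at least 1 library.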
